A study of Homo sapiens with 19 samples.

Results

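The 49 genes described here encode receptor tyrosine kinases outside the ERBB family. They were chosen by gene symbol, from 20162 protein-coding genes with an annotated start, and all 49 symbols matched the annotation. The study mapped the binding of the orphan nuclear receptor ERRα by ChIP-seq in ERBB2-positive human breast cancer cell lines, and asked how growth factors and lapatinib resistance change where the receptor binds. SKBr3 and BT-474 cells were starved of serum for 24 h and then given 100 µM EGF, 100 µM heregulin (HRG) or PBS as vehicle for 90 min. Parental pSKBr3 cells were left untreated. Their derivatives, LRSKBr3, had become resistant during long exposure to rising lapatinib doses and were kept in 2 µM of the drug, so that the drug and the line cannot be told apart. The 19 libraries, 13 of them ChIP and 6 input, were deposited as 8 peak lists, 1 for each line and treatment. Each SKBr3, pSKBr3 and LRSKBr3 list pools 2 ChIP libraries, whereas each BT-474 list rests on 1 ChIP library with an input shared by the 3 treatments. No list carries a spread between replicates, so no difference could be tested, and every comparison is of what 1 list called against what another called.

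Receptor tyrosine kinases sit in the plasma membrane, bind growth factors, ephrins, Wnt proteins, collagens or agrin outside the cell, and phosphorylate tyrosines inside it, to which adaptors such as GRB2, SHC1 and GAB1 dock. Lapatinib inhibits the kinases of EGFR and ERBB2, and receptors of other families, such as MET, AXL and IGF1R, can feed the same RAS and PI3K routes. ERRα recognises a DNA element (the ERRE) that contains the letters TCAAGGTCA, and the AP-1 complex of FOS and JUN proteins, which growth factors activate, recognises TGACTCA and its reverse complement TGAGTCA.

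The lists held between 22539 peaks (pSKBr3) and 41271 peaks (BT-474 HRG), with median widths between 1188 and 2012 bp. Neither tags per peak nor the depth of sequencing can be read from them. A gene was called bound in a list when the centre of at least 1 peak lay within 20 kb of any of its annotated starts. Each peak carries a score that equals 50 at the authors' cutoff, and here it is expressed as a percentile among the peaks of the same list. Many strong peaks are tied at a score of 3100, which stands at percentile 98.3 to 98.9 depending on the list. Near the distance limit, a MUSK peak of the SKBr3 EGF list lay 19955 bp from a start and was counted, and a MUSK peak of the HRG list lay 20154 bp away and was not.

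In SKBr3 cells 30 of the 49 receptor genes (61.2%) were bound on vehicle, where 54.1% of all protein-coding genes were. On EGF 35 receptor genes (71.4%) were bound, beside 56.3% of all genes, and on HRG 36 (73.5%), beside 66.4%. In BT-474 cells 27 receptor genes (55.1%) were bound on vehicle, beside 53.0% of all genes. The EGF list of these cells bound 28 (57.1%), beside 42.3%, and the HRG list 32 (65.3%), beside 55.3%. Of the resistance pair, pSKBr3 bound 29 (59.2%), beside 57.1% of all genes, and LRSKBr3 bound 35 (71.4%), beside 69.9%. The receptor share thus lay above the genome-wide share in all 8 lists, by between 1.5 and 15.1 percentage points. Receptor genes are long and have many starts: the median gene covers 85.4 kb with 8 starts, against 27.2 kb with 5 starts for all genes, and the 20 kb windows around its starts span 80.9 kb against 49.3 kb. With only the 5′ end of each gene counted, 21, 25 and 28 receptor genes were bound in SKBr3 on vehicle, EGF and HRG, beside 45.3%, 46.8% and 58.9% of all genes. In BT-474 19, 17 and 21 were, beside 43.9%, 32.9% and 45.6%, in pSKBr3 19, beside 49.7%, and in LRSKBr3 26, beside 63.4%. On this count the receptor share was above the genome-wide share in 2 of 8 lists, SKBr3 EGF and BT-474 EGF.

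**Figure D1:**
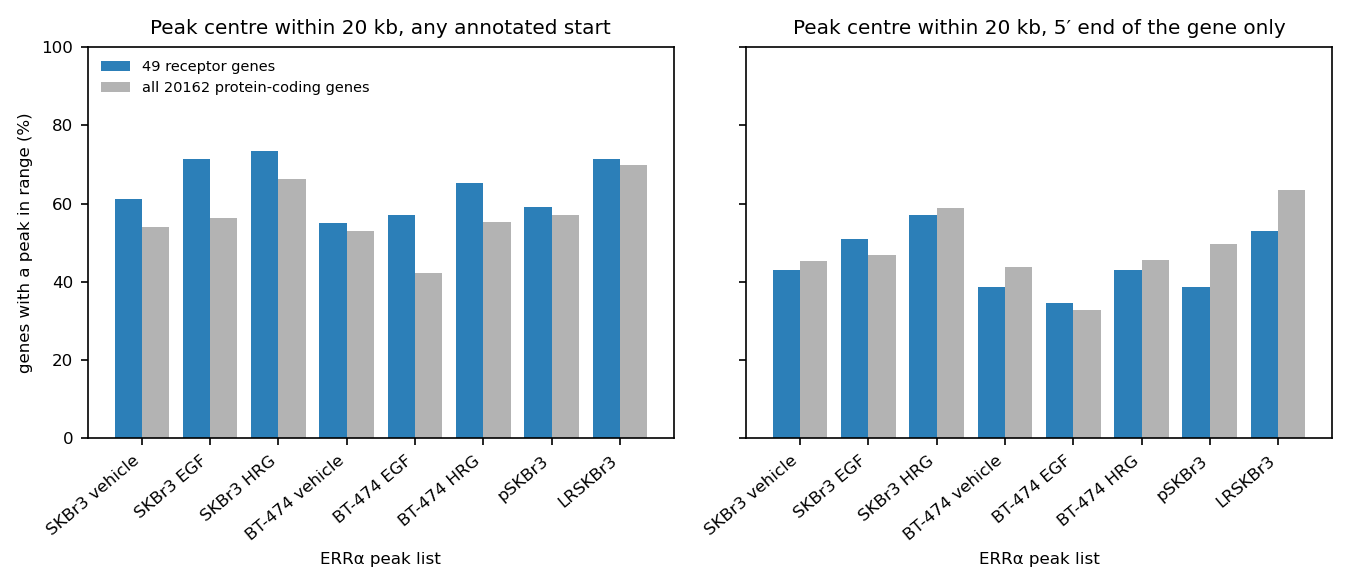
Percentage of the 49 receptor genes (blue) and of all 20162 protein-coding genes (grey) with an ERRα peak centre within 20 kb, in each of the 8 lists. On the left any annotated start was used and the blue bars stand above the grey in every list. On the right only the 5′ end of the gene was used and they do so in 2 of 8 lists.

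Peaks were also counted per length of searched sequence. The receptor windows held 15.0 peaks per Mb in the SKBr3 vehicle list, equal to the 15.0 peaks per Mb around all genes. On SKBr3 HRG the values were 26.2 and 21.2 peaks per Mb, and in LRSKBr3 they were 26.2 and 23.1. The remaining lists gave receptor densities between 12.7 and 18.5 peaks per Mb, each above its genome-wide counterpart of 10.8 to 16.9.

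**Figure D2:**
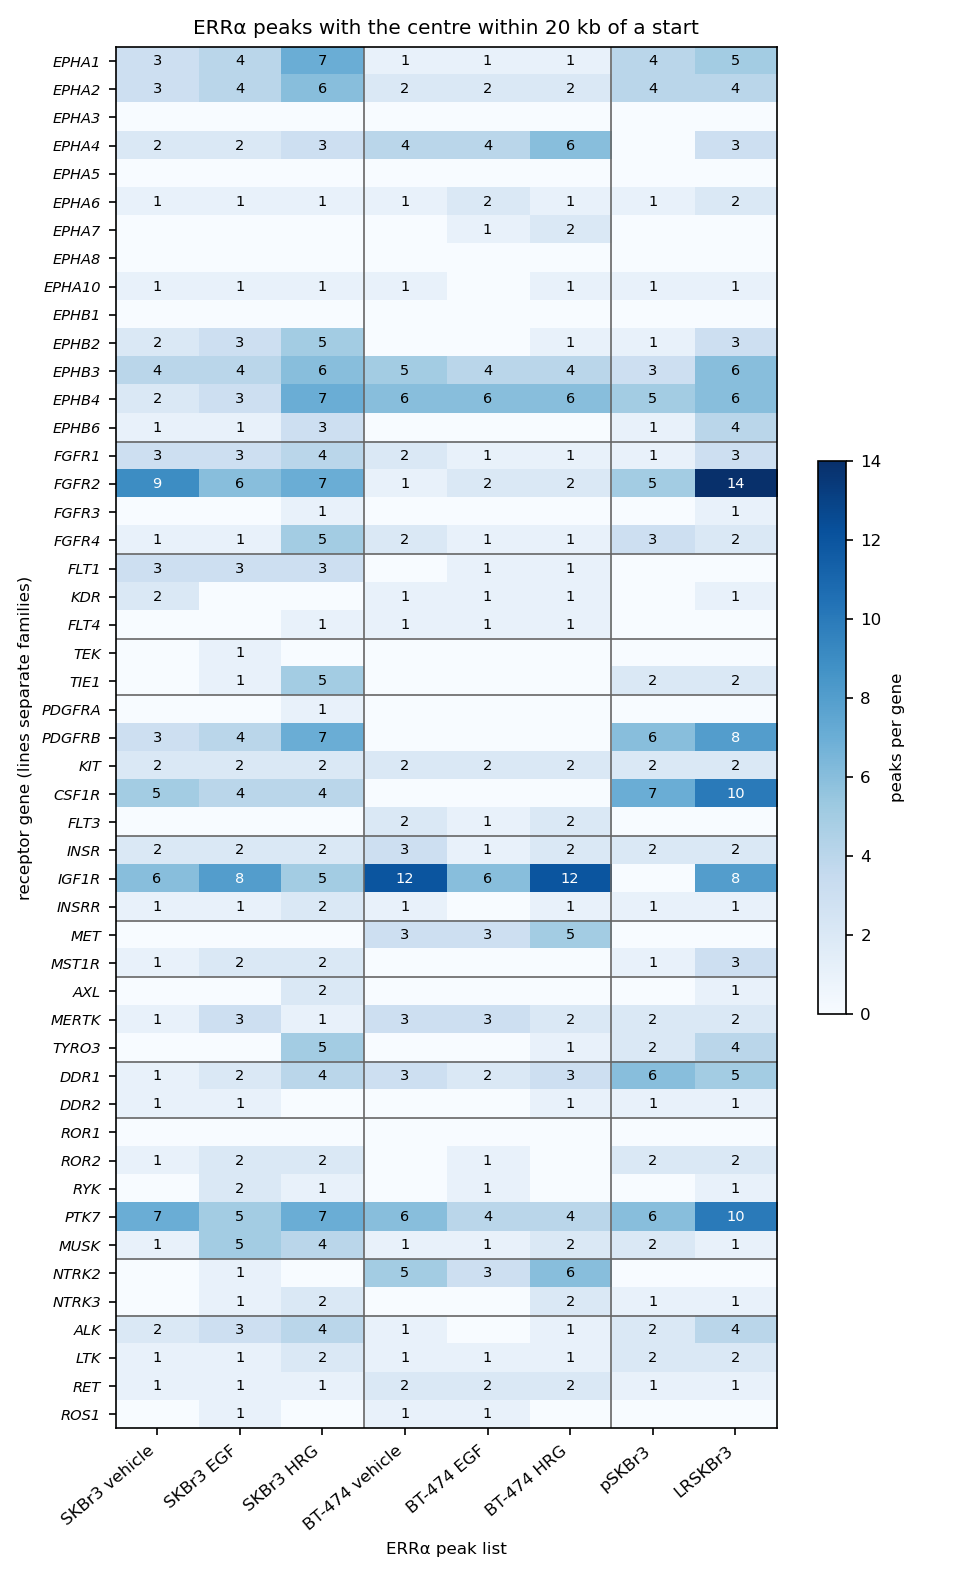
Number of ERRα peaks in range of each receptor gene (rows, grouped by family) in each of the 8 lists (columns); an empty cell is 0. FGFR2 in LRSKBr3 has the highest count, 14, IGF1R is empty in pSKBr3 alone, MET is filled in the BT-474 columns only, and CSF1R and PDGFRB are empty there.

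Merging peaks that overlapped by at least 1 bp gave 213 sites around 44 receptor genes, and 19 of them held the ERRE letters within 100 bp of a peak centre. The stretches that follow are those that the comparisons below turn on, read from GRCh37 (hg19) on the strand that spells TCAAGGTCA, with those letters in capitals. RET is shown because its site was called in every list. RYK, AXL, PDGFRB, NTRK3 and ROR2 are shown because their sites differ between vehicle and growth factor lists, FLT3 and IGF1R because theirs were called in BT-474 only, PTK7 as a site called in 7 of 8 lists, and MUSK for a pair of similar stretches under a single site. All lie in introns of the named gene except the PDGFRB stretch, which lies upstream of it.
RET, chr10:43601418-43601478, minus strand: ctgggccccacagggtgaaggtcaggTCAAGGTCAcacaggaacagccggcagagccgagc
RYK, chr3:133967634-133967694, minus strand: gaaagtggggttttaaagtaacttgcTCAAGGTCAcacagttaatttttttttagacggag
AXL, chr19:41741598-41741658, minus strand: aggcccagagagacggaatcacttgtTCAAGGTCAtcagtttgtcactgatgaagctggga
PDGFRB, chr5:149536178-149536238, plus strand: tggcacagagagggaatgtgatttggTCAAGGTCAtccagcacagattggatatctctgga
NTRK3, chr15:88784475-88784535, plus strand: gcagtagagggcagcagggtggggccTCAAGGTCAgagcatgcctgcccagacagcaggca
ROR2, chr9:94643035-94643095, plus strand: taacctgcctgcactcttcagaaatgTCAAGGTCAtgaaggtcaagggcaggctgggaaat
PTK7, chr6:43056863-43056923, minus strand: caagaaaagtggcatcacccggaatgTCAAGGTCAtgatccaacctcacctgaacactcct
FLT3, chr13:28663327-28663387, minus strand: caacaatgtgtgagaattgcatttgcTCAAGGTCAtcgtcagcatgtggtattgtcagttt
IGF1R, chr15:99348832-99348892, plus strand: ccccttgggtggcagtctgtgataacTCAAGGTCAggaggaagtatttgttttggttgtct
MUSK, chr9:113507515-113507575, minus strand: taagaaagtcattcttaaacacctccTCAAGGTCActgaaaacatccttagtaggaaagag
MUSK, chr9:113509047-113509107, minus strand: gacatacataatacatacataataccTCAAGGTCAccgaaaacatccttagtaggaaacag

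The AP-1 letters TGACTCA or TGAGTCA lay within 100 bp of a peak centre at 26 of the 213 sites. Those below were in the window in the most lists, 4 each, and both were read on the plus strand in introns of the named gene, with the AP-1 letters in capitals.
PTK7, chr6:43088875-43088933: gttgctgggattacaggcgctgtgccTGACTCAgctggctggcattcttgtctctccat
ALK, chr2:29527414-29527472: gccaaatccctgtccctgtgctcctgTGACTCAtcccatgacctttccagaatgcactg

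RET, the receptor for the GDNF family of ligands, carried a strong site in every list. The intronic site at chr10:43600295-43602696 was called in all 8 lists and was tied at the score of 3100 in the 5 SKBr3-derived ones. In BT-474 its percentile was 91.7 on vehicle, 89.5 on EGF and 86.4 on HRG. The ERRE letters were within 100 bp of the peak centre in 6 of the 8 lists. A further intronic site at chr10:43577056-43578779 was called in the 3 BT-474 lists alone, at percentiles 82.5, 60.2 and 57.4.

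INSR, the insulin receptor, showed a comparable site in an intron at chr19:7144027-7147186. It was tied at the score of 3100 on SKBr3 vehicle and EGF and in the 3 BT-474 lists, so these 5 lists cannot be ranked against each other at this site. On SKBr3 HRG its percentile was 97.1. The lowest value was 91.2 in pSKBr3, against 97.2 in LRSKBr3. A site in the INSR promoter at chr19:7292425-7294238 was called in 7 lists and spread widely, from percentile 12.8 (BT-474 HRG) to 85.9 (SKBr3 HRG).

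Altogether 16 receptor genes (32.7%) were bound in all 8 lists, beside 26.8% of all genes. This depended on the range searched, since 7 (14.3%, beside 18.7%) were within 10 kb and 9 (18.4%, beside 19.2%) when only the gene's 5′ end was used, both under the genome-wide share. The 16 were DDR1, EPHA1, EPHA2, EPHA6, EPHB3, EPHB4, FGFR1, FGFR2, FGFR4, INSR, KIT, LTK, MERTK, MUSK, PTK7 and RET. At the level of sites, 18 of the 213 (8.45%) were called in every list, beside 8.9% of the 42362 sites around all genes. These 18 sites belonged to 15 genes, and MERTK was bound in all 8 lists with no single site common to them. EPHA6, a receptor for A-type ephrins, counts among the 16 through a site that lies in its 3′ untranslated region but nearer to a start of ARL6.

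**Figure D3:**
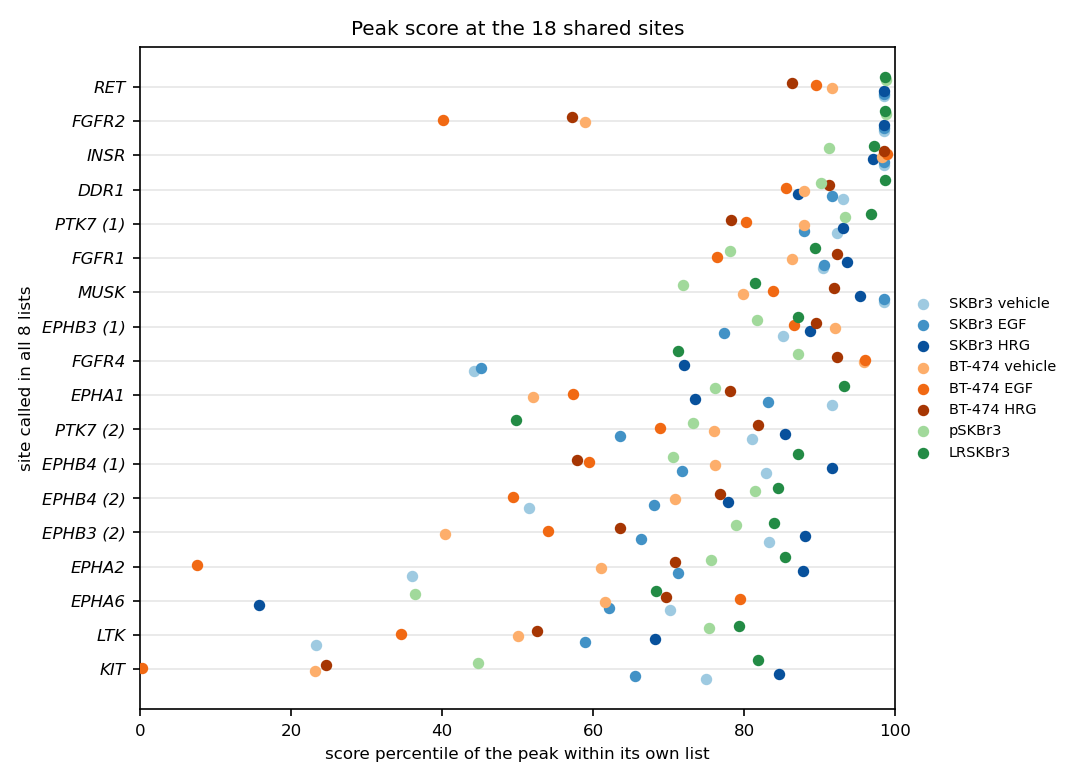
Score percentile, within its own list, of the strongest peak at each of the 18 sites called in all 8 lists; each point is a list, and sites are ordered by their median. RET, FGFR2 and INSR lead, with SKBr3-derived points at or above 91.2, while the FGFR2 points of BT-474 lie between 40.1 and 58.9 and KIT falls to 0.227 on BT-474 EGF.

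Of the 4 FGF receptors, FGFR1, FGFR2 and FGFR4 were bound in all 8 lists. FGFR2 had 9 peaks in range on SKBr3 vehicle, 6 on EGF and 7 on HRG, against 1, 2 and 2 in the matching BT-474 lists. In pSKBr3 the gene had 5 peaks and in LRSKBr3 14, the largest number of any receptor gene in any list. A site across an exon and intron next to an alternative start, chr10:123254606-123257475, was tied at the score of 3100 in the 5 SKBr3-derived lists and was called in no BT-474 list. The site at chr10:123336160-123341598 was likewise tied at 3100 in those 5 lists, but was also called in BT-474, at percentiles up to 58.9. Peaks of all kinds within 1 Mb of FGFR2 numbered 29 to 39 in SKBr3, 8 to 14 in BT-474, 20 in pSKBr3 and 49 in LRSKBr3. Between the lines and within the resistance pair the neighbourhood of FGFR2 thus moved in the same direction as the gene itself, and its part in the difference was not tested. On SKBr3 HRG it did not, with 39 peaks against 32 on vehicle, nor on BT-474 EGF, with 8 against 10.

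FGFR1 was strongest at an intronic site called in all 8 lists, with percentiles from 76.4 (BT-474 EGF) to 93.6 (SKBr3 HRG). FGFR4, which binds FGF19, was bound in all 8 lists through a site downstream of the gene at chr5:176535829-176538013. That site ranked higher in BT-474, at 95.9 on vehicle, 96.0 on EGF and 92.3 on HRG, than in SKBr3, at 44.2, 45.1 and 72.0. It stood at 87.1 in pSKBr3 and 71.2 in LRSKBr3, so pSKBr3 lay nearer to the BT-474 range than the SKBr3 lists did. FGFR3 was bound weakly, by a single peak upstream of the gene on SKBr3 HRG (percentile 23.2) and in LRSKBr3 (49.1).

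PDGFRB, the PDGF B-chain receptor, and CSF1R, the macrophage colony-stimulating factor receptor, are neighbours on chromosome 5 and share peaks. In the 3 SKBr3 lists 3 peaks of each list were in range of both genes, and in pSKBr3 and LRSKBr3 4 peaks were, so the pair is not 2 independent observations. PDGFRB had 3 peaks on SKBr3 vehicle, 4 on EGF, 7 on HRG, 6 in pSKBr3 and 8 in LRSKBr3. CSF1R had 5, 4, 4, 7 and 10 in the same order. Neither gene had a peak in any BT-474 list. The strongest shared site, at chr5:149484949-149490530 in a CSF1R intron, stood at percentile 98.6 on vehicle, 96.8 on EGF and 97.1 on HRG in SKBr3. It was at 91.7 in pSKBr3 and 98.7 in LRSKBr3. The absence from BT-474 did not extend to the whole neighbourhood, where 38 to 52 peaks lay within 1 Mb of PDGFRB, against 78 to 94 in SKBr3. PDGFRB also gained a promoter-proximal site with the ERRE letters, printed above, on SKBr3 HRG (percentile 23.2) and in LRSKBr3 (54.9). It was called in neither SKBr3 vehicle nor pSKBr3.

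The other class III receptors differed among themselves. KIT, the stem cell factor receptor, had 2 peaks in every list. Its site upstream of the gene at chr4:55511834-55513560 ranged from percentile 0.227 on BT-474 EGF to 84.6 on SKBr3 HRG. Intronic KIT sites differed by line: chr4:55527048-55528947 was called in the 5 SKBr3-derived lists and chr4:55574888-55576732 in the 3 BT-474 lists. FLT3, a haematopoietic receptor, was bound in BT-474 alone, at the ERRE site printed above on all 3 treatments (percentiles 47.4, 47.4 and 50.5). Another FLT3 site, chr13:28670733-28672810, was called on BT-474 vehicle and HRG at up to percentile 67.1, without the ERRE letters within 100 bp of a peak centre. PDGFRA had a single weak peak, on SKBr3 HRG at percentile 10.3.

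IGF1R, the IGF-1 receptor, had more peaks over the 8 lists than any other receptor gene, 57, spread over its introns. The counts were 6 on SKBr3 vehicle, 8 on EGF and 5 on HRG, and 12, 6 and 12 in the matching BT-474 lists. LRSKBr3 had 8 peaks and pSKBr3 none. The strongest site, at chr15:99291284-99293743, was called only in BT-474, at percentiles 91.1, 91.5 and 90.3. In LRSKBr3 the highest IGF1R percentile was 67.9, at chr15:99439445-99441338, a site also called on SKBr3 EGF (52.7) and HRG (33.4) but not on vehicle. Within 1 Mb of the gene the pSKBr3 list had 4 peaks and the LRSKBr3 list 28, against 16 to 22 in the SKBr3 lists, and the part of this wider difference was not tested. INSRR, an insulin receptor relative, had 1 or 2 peaks in 7 lists and none on BT-474 EGF. On SKBr3 vehicle and EGF, in pSKBr3 and in LRSKBr3 its only peak lay nearer to a start of another gene.

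MET, the hepatocyte growth factor receptor, was bound in BT-474 only, and by no peak within 20 kb of its 5′ end. It had 3 peaks on vehicle, 3 on EGF and 5 on HRG, and none in any of the 5 SKBr3-derived lists. The intronic site at chr7:116349785-116352814 stood at percentile 85.2 on vehicle, 89.4 on EGF and 90.5 on HRG. Another, at chr7:116416140-116419174, was at 60.6, 48.7 and 91.6. Peaks within 1 Mb of MET numbered 41, 32 and 57 in BT-474, 9 to 11 in SKBr3 and 4 in each line of the resistance pair, so the wider region differed in the same direction. MST1R, the related receptor for macrophage-stimulating protein, showed the opposite split. It had 1 peak on SKBr3 vehicle, 2 on EGF, 2 on HRG, 1 in pSKBr3, 3 in LRSKBr3 and none in BT-474. Its leading site, at chr3:49931557-49932705, was at percentile 74.7 on vehicle, 86.4 on EGF and 89.5 on HRG. Around MST1R the BT-474 lists had 9 to 17 peaks within 1 Mb, against 47 to 76 in SKBr3.

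Among the TAM receptors, which bind GAS6 and protein S, MERTK was bound in every list but at different sites. On SKBr3 HRG its only peak lay nearer to a start of another gene. The sites at chr2:112785814-112788002 and chr2:112788799-112791844, at and just beyond the 3′ end of MERTK, were called in the 3 BT-474 lists and in no other. AXL was bound in 2 lists, SKBr3 HRG and LRSKBr3, at the intronic ERRE site printed above (percentiles 14.4 and 45.2). TYRO3 had 5 peaks on SKBr3 HRG, 2 in pSKBr3, 4 in LRSKBr3 and 1 on BT-474 HRG, and none on vehicle or EGF in either line.

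The collagen receptor DDR1 was bound in all 8 lists at its promoter, by a site at chr6:30842877-30846213 that spans the 5′ end. Its percentile was 93.1 on SKBr3 vehicle, 91.6 on EGF and 87.2 on HRG. In BT-474 the values were 88.0, 85.5 and 91.2, and in LRSKBr3 the site was tied at 3100, against percentile 90.2 in pSKBr3. The ERRE letters occurred at 2 places in this site within 100 bp of the peak centre, on BT-474 EGF and in pSKBr3. A neighbouring DDR1 site at chr6:30848851-30855116 was absent on SKBr3 vehicle and stood at 71.3 on EGF, 94.4 on HRG and 91.6 in LRSKBr3. It was also called in pSKBr3, at up to 63.1, and in BT-474, at 37.7 on vehicle, 7.0 on EGF and 25.7 on HRG. DDR2 had at most 1 peak in any list.

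Of the receptors that bind Wnt proteins or agrin, PTK7, a pseudokinase of planar cell polarity, was the most densely bound, with 4 to 10 peaks in every list. Its site at chr6:43025610-43028431 lies over KLC4, nearer to a start of MRPL2, and ranked between percentile 78.3 (BT-474 HRG) and 96.8 (LRSKBr3). Within the gene, the site at chr6:43078822-43080733 was called in all 8 lists, from percentile 49.8 in LRSKBr3 to 85.4 on SKBr3 HRG. The ERRE site printed above was called in 7 lists, all but SKBr3 vehicle, with percentiles from 0.975 on BT-474 EGF to 66.5 on BT-474 vehicle.

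MUSK, the agrin-dependent receptor of the neuromuscular junction, had a strong intronic site at chr9:113506459-113510004 in all 8 lists. It was tied at 3100 on SKBr3 vehicle and EGF and stood at 95.4 on HRG, against 79.9, 83.8 and 91.9 in BT-474 and 81.5 in LRSKBr3. The pSKBr3 list alone resolved the site into 2 peaks, at percentiles 71.9 and 46.1, and each had an ERRE within 100 bp of its centre; these are the similar MUSK stretches printed above. RYK was bound on SKBr3 EGF (percentile 33.7) and HRG (66.2) at the ERRE site printed above, and in LRSKBr3 (31.9), but neither on SKBr3 vehicle nor in pSKBr3. The ERRE was within 100 bp of the centre in those 3 lists. The BT-474 EGF list called a peak over the same site (percentile 54.4), with AP-1 letters and not the ERRE within 100 bp of its centre. ROR2 had its ERRE site in 5 lists at percentiles from 5.67 to 31.9, and ROR1 had no peak in any.

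The Eph receptors, the largest family here, had 14 members with between 0 and 41 peaks over the 8 lists. EPHB4, EPHB3, EPHA2 and EPHA1 had the most peaks over the 8 lists, 41, 36, 27 and 26. EPHB4 rose from 2 peaks on SKBr3 vehicle to 3 on EGF and 7 on HRG, whereas BT-474 called 6 on each treatment. Within 1 Mb of EPHB4 the SKBr3 counts were 21, 35 and 120 and the BT-474 counts 30, 25 and 28, so the gene's change on HRG occurred in a region that changed with it. EPHB4 was bound in all 8 lists at its coding region and introns, chr7:100408366-100414800, at percentiles from 57.9 (BT-474 HRG) to 91.7 (SKBr3 HRG).

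EPHB3 had 2 sites in all 8 lists. The downstream site at chr3:184314828-184317710 ranged from percentile 77.3 on SKBr3 EGF to 92.1 on BT-474 vehicle. A site at its 5′ end, chr3:184276418-184279822, stood at 93.6, 91.1 and 88.4 in BT-474 and at 34.4 in LRSKBr3, the only SKBr3-derived list with a peak there. The LRSKBr3 peak lay closer to the start and overlapped the BT-474 peaks only in part. EPHA1 was led by a site at chr7:143089849-143093597, at percentile 94.0 on SKBr3 EGF and 98.6 on HRG, with vehicle between them and no BT-474 peak at that site. The resistance pair called the site as 2 peaks each, at up to 86.3 in pSKBr3 and 78.5 in LRSKBr3, which are not scores of the same interval. EPHA2 had an intronic site at chr1:16468581-16474574 that was likewise not called in BT-474, at 85.2, 87.3 and 97.1 in SKBr3, at up to 82.4 in pSKBr3 and at 95.7 in LRSKBr3.

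EPHA4 went the other way, with 2, 2 and 3 peaks in SKBr3, 4, 4 and 6 in BT-474, 3 in LRSKBr3 and none in pSKBr3. EPHB6, a kinase-inactive member, was bound in the 5 SKBr3-derived lists and not in BT-474, partly by peaks nearer to TRPV6. EPHB2 was bound in 6 lists with at most 5 peaks, EPHA10 in 7 lists by 1 site, and EPHA7 in BT-474 EGF and HRG by weak peaks whose highest percentile was 21.5. EPHA3, EPHA5, EPHA8 and EPHB1 had no peak in any list. With ROR1 they made up the 5 receptor genes (10.2%) that no list bound, beside 15.3% of all genes. Within 10 kb 10 were unbound (20.4%, beside 23.8%), and from the 5′ end only 11 were (22.4%, beside 20.3%), then over the genome-wide share. Peaks within 1 Mb of EPHA8 numbered 34 to 110 per list, whereas EPHA5 had 1 to 24 peaks within that distance. The windows searched around their starts were short, 40.1 kb for EPHA8 and 40.6 kb for EPHA5, and the lack of peaks in them was not tested.

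**Figure D4:**
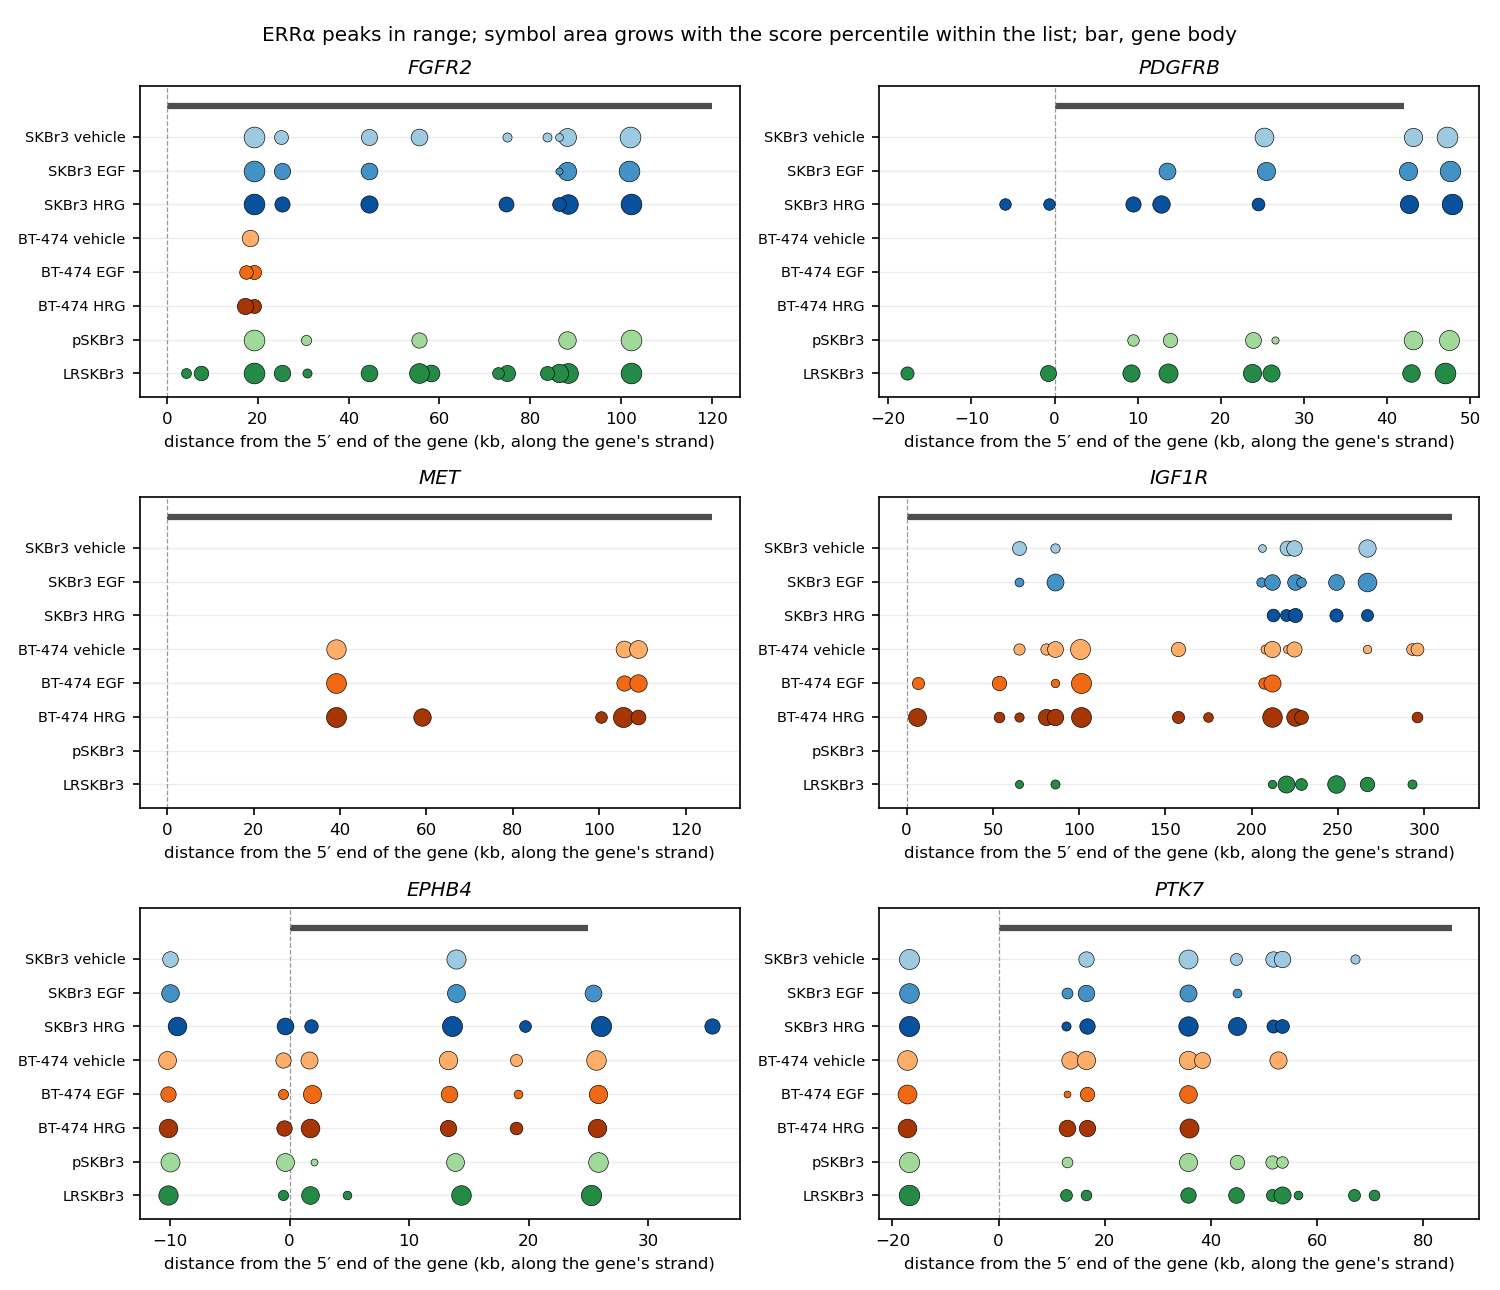
Position of every ERRα peak in range of FGFR2, PDGFRB, MET, IGF1R, EPHB4 and PTK7 in each list, as the distance in kb of the peak centre from the 5′ end of the gene; larger symbols have a higher score percentile within their list, and the dark bar is the gene. FGFR2 and PDGFRB carry most or all of their symbols in the SKBr3-derived rows, MET in the BT-474 rows, and the EPHB4 and PTK7 sites recur in the rows of both lines.

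Among the angiogenic receptors, FLT1 had 3 peaks in each SKBr3 list, at most at percentile 66.5, 1 peak each on BT-474 EGF and HRG, and none in pSKBr3 or LRSKBr3. KDR had 2 peaks on SKBr3 vehicle, none on EGF or HRG. Its promoter site, at percentile 25.7 on SKBr3 vehicle, was called on all 3 BT-474 treatments at 51.3, 53.0 and 77.6, and the LRSKBr3 peak lay elsewhere. FLT4 peaks lay 14598 bp or more from its starts and nearer to SCGB3A1. TEK, the angiopoietin receptor, was bound on SKBr3 EGF alone (percentile 52.3). TIE1, its partner, had 1 peak on SKBr3 EGF, 5 on HRG, 2 in pSKBr3 and 2 in LRSKBr3, none of which passed percentile 62.9.

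The neurotrophin receptors NTRK2 and NTRK3 diverged. NTRK2 had 5, 3 and 6 peaks in the BT-474 lists, with percentiles up to 84.1, and a single SKBr3 peak, on EGF at percentile 9.57. NTRK3 was bound at its ERRE site on SKBr3 EGF (1.97) and HRG (51.6), in pSKBr3 (39.1) and in LRSKBr3 (41.6), and had other weak peaks on BT-474 HRG. ALK had 1 to 4 peaks in 7 lists, and its highest percentile was 73.7, in LRSKBr3. LTK, its relative, was bound at an alternative start in all 8 lists, from percentile 23.3 on SKBr3 vehicle to 79.4 in LRSKBr3. ROS1 had single peaks on SKBr3 EGF, BT-474 vehicle and BT-474 EGF, each at a different place, and the SKBr3 EGF peak lay nearer to a start of another gene.

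In SKBr3, 11 receptor genes (22.4%) were bound on EGF and/or HRG and not on vehicle, beside 18.3% of all genes. They were AXL, FGFR3, FLT4, NTRK2, NTRK3, PDGFRA, ROS1, RYK, TEK, TIE1 and TYRO3. Of these only NTRK3, RYK and TIE1 (6.12%) were bound on both growth factors, beside 6.0% of all genes. HRG accounted for 8 of the 11 genes (16.3%), beside 16.5% of all genes, and EGF for 6 (12.2%), beside 7.76%. KDR was the single gene (2.04%) bound on vehicle and on neither growth factor, beside 1.88%. In lists of equal size it was again KDR alone (2.04%, beside 2.97%), and with P of at most 1e-10 there was no such gene (beside 2.36%). With the 5′ end only there were 2, FLT1 and KDR (4.08%, beside 2.31%). The highest gained percentiles belonged to TYRO3 on HRG (83.0) and RYK on HRG (66.2). Among peaks with P of at most 1e-10, 12 receptor genes (24.5%, beside 18.0% of all genes) were bound on a growth factor and not on vehicle. They were NTRK3, ROS1, RYK, TEK, TIE1 and TYRO3 of the 11, and ALK, EPHA4, EPHB6, FLT1, LTK and MERTK, whose vehicle peaks did not pass this P value.

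The number of peaks per gene was compared over all 49 receptor genes, those not bound on vehicle included. On HRG 25 of 49 receptor genes (51.0%) had more peaks than on vehicle and 5 (10.2%) had fewer, beside 41.4% and 11.3% of all genes. On EGF 18 (36.7%) had more and 4 (8.16%) fewer, beside 19.9% and 14.8%. CSF1R, FGFR2 and KDR were among those with fewer on both. The HRG list is longer than the vehicle list by 37195 to 32183 peaks, and the EGF list, at 32567, is nearly equal to it.

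In BT-474, 8 receptor genes (16.3%) were bound on a growth factor and not on vehicle, beside 9.67% of all genes. They were DDR2, EPHA7, EPHB2, FLT1, NTRK3, ROR2, RYK and TYRO3, and only EPHA7 and FLT1 (4.08%) on both, beside 1.58%. EGF accounted for 4 (8.16%), beside 3.04%, and HRG for 6 (12.2%), beside 8.21%. No receptor gene was bound on vehicle and lost on both growth factors, beside 4.82% of all genes. There were 3 such genes (6.12%) within 10 kb, beside 4.95%, and 3 with the 5′ end only, beside 5.38%, so the direction against all genes turned in these settings. All of these BT-474 gains rested on peaks at or below percentile 54.4, and among peaks with P of at most 1e-10 the count was 2, FLT1 and RYK (4.08%, beside 6.39% of all genes), so the receptor share then lay under the genome-wide share. In peaks per gene BT-474 EGF went down more often than up: 12 receptor genes (24.5%) had fewer peaks than on vehicle and 6 (12.2%) more, beside 27.8% and 6.62% of all genes. BT-474 HRG went the other way, with 11 (22.4%) more and 7 (14.3%) fewer, beside 21.1% and 13.8%. The BT-474 EGF list is the shorter, with 26832 peaks against 32259 on vehicle.

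The lines were then set against each other. The 3 SKBr3 lists bound 28 receptor genes together (57.1%), beside 46.1% of all genes, and the 3 BT-474 lists bound 23 (46.9%), beside 38.2%. CSF1R, EPHB6, MST1R and PDGFRB (8.16%) were bound in the 3 SKBr3 lists and in no BT-474 list, beside 6.57% of all genes. FLT3 and MET (4.08%) showed the reverse, beside 3.08%. All 4 genes of the SKBr3 set were also bound in pSKBr3 and LRSKBr3, and neither gene of the BT-474 set was. Within 10 kb the SKBr3 set held 7 genes (14.3%, beside 6.31%) and the BT-474 set 1 (2.04%, beside 2.69%). With P of at most 1e-10 each held 4 (8.16%, beside 6.49% and 2.99%). With the 5′ end only they held 3 (6.12%, beside 6.48%) and 2, FLT3 and RET (4.08%, beside 2.96%). Sites were compared in the same way. Of the 213 sites, 21 (9.86%) were called in the 3 SKBr3 lists and no BT-474 list, beside 6.24% of all gene sites, and 14 (6.57%) in the 3 BT-474 lists and no SKBr3 list, beside 5.28%.

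Between parental and resistant cells, no receptor gene was bound in pSKBr3 and not in LRSKBr3, beside 1.84% of all genes. The reverse held for 6 receptor genes (12.2%), AXL, EPHA4, FGFR3, IGF1R, KDR and RYK, beside 14.7% of all genes. With P of at most 1e-10 there were 9 (18.4%, beside 15.8%) and within 10 kb also 9 (18.4%, beside 15.4%), then over the genome-wide share. Shares that lie near the genome-wide share, under or over it by setting, are no finding about the receptors as a class. The LRSKBr3 list is also the longer, with 39777 peaks against 22539. With each list reduced to its 22539 highest-scoring peaks, 4 of the 6 remained bound in LRSKBr3 alone (AXL, EPHA4, FGFR3 and IGF1R; 8.16%, beside 5.5% of all genes), while DDR2, NTRK3, ROR2 and TIE1 were bound in pSKBr3 alone (8.16%, beside 6.82%). AXL, FGFR3 and RYK were absent from SKBr3 vehicle and present on SKBr3 HRG, at the same sites that LRSKBr3 called. Of the 6, EPHA4, IGF1R and KDR were bound on SKBr3 vehicle as well, in cells starved of serum for 24 h. They were missing from the pSKBr3 list, which is shorter than the vehicle list by 22539 to 32183 peaks. The KDR peak of LRSKBr3 lay at a site that no other list called (percentile 5.83). EPHA4 stood at percentile 68.7 in LRSKBr3, at a site called in every list except pSKBr3.

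By number of peaks, 20 receptor genes (40.8%) had more in LRSKBr3 than in pSKBr3 and 3 (6.12%) had fewer, beside 43.8% and 5.04% of all genes. The largest gains were at FGFR2, from 5 to 14 peaks, at IGF1R, from 0 to 8, and at PTK7, from 6 to 10. DDR1, FGFR4 and MUSK were the 3 with fewer. DDR1 and MUSK had the same sites in both lists, with 1 site called as 2 peaks in pSKBr3, and only FGFR4 had a site in pSKBr3 that LRSKBr3 did not call. Of the sites, 64 were called in both lines, 54 (25.4%) in LRSKBr3 only of the pair, beside 26.1% of all gene sites, and 3 (1.41%) in pSKBr3 only, beside 2.73%. Of the 54, 34 were also called on SKBr3 EGF and/or HRG (16.0% of the 213 sites, beside 14.5% of all gene sites), and 14 of those were not called on SKBr3 vehicle (6.57%, beside 8.25%). A further 16 were called in no other list (7.51%, beside 8.32%). These shares were near or under those of all gene sites.

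**Figure D5:**
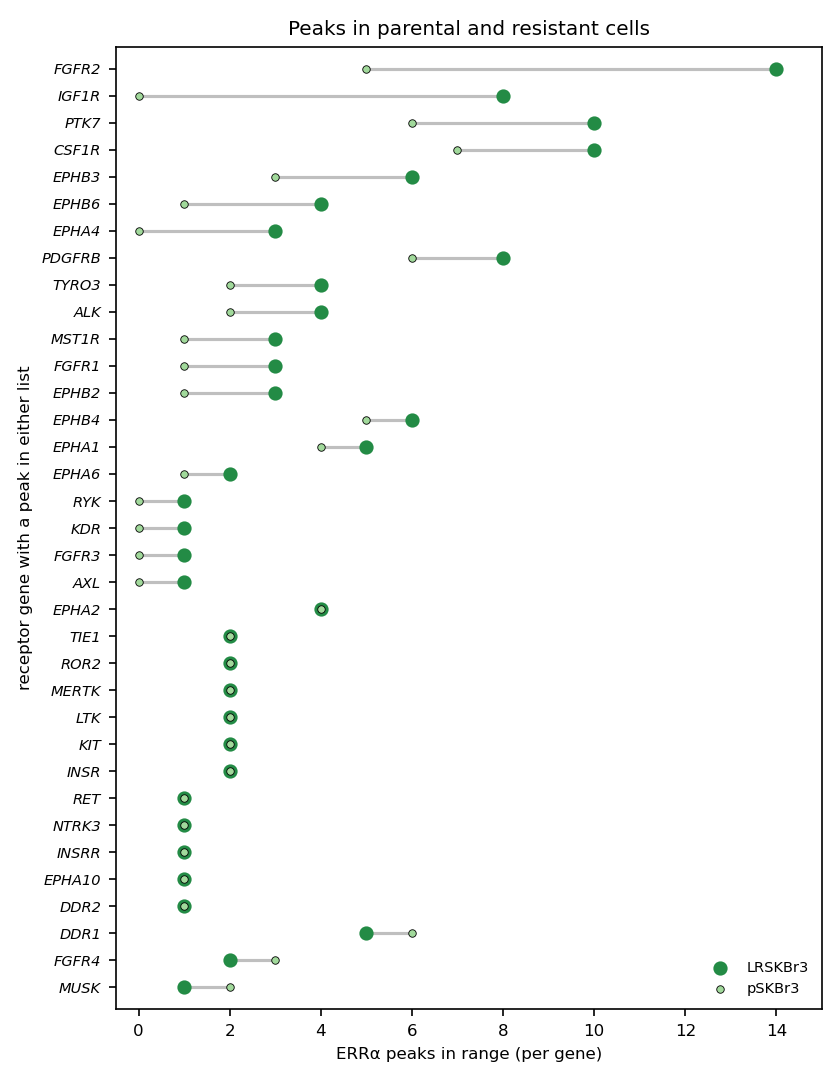
Number of ERRα peaks in range of each receptor gene bound in pSKBr3 (light, small) or LRSKBr3 (dark, large), joined by a line and ordered by the difference. FGFR2 and IGF1R show the longest lines towards LRSKBr3, and DDR1, FGFR4 and MUSK are the 3 genes with more peaks in pSKBr3, of which DDR1 and MUSK have the same sites in both lists.

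Promoters gave smaller numbers, and the receptor share lay above the genome-wide share in 3 lists, SKBr3 vehicle, SKBr3 EGF and BT-474 EGF, and below it in the other 5. A peak centre within 1 kb of a start was called for 14 receptor genes on SKBr3 vehicle, 15 on EGF and 17 on HRG, beside 23.3%, 22.3% and 35.7% of all genes. In BT-474 the numbers were 7, 6 and 6, beside 19.4%, 11.4% and 16.8%. In pSKBr3 13 receptor genes and in LRSKBr3 16 had such a peak, beside 31.4% and 41.7%. DDR1, EPHB4 and LTK had a promoter peak in every list, and INSR and IGF1R in 7. EPHA1, FGFR2, MST1R, ROR2 and CSF1R had one in all 5 SKBr3-derived lists and in no BT-474 list. Any annotated start was used here, starts inside the gene included. ROR2 had no peak within 20 kb of its 5′ end in any list, and IGF1R had one only on BT-474 EGF and HRG. Most peaks in range were intronic in every list, for example 45 of 73 in pSKBr3, 75 of 122 in LRSKBr3 and 66 of 86 on SKBr3 EGF. The intronic share of peaks around all genes was not counted, so this cannot be read as a trait of the receptors.

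The ERRE letters lay within 100 bp of the centre in 3 of 70 receptor peaks on SKBr3 vehicle (4.29%), 4 of 86 on EGF (4.65%) and 11 of 122 on HRG (9.02%). Peaks around all genes held them in 6.65%, 6.6% and 4.66%. The pSKBr3 list had the highest share, 12 of 73 (16.4%), beside 6.5%, and LRSKBr3 10 of 122 (8.2%), beside 5.62%. In BT-474 the numbers were 3 of 73, 1 of 59 and 4 of 80, beside 5.93%, 6.65% and 5.94%. In windows of the same width 2 kb to either side of the receptor peaks the letters occurred at most once per list. AP-1 letters were in 5 receptor peaks on SKBr3 vehicle (7.14%), 4 on EGF (4.65%) and 13 on HRG (10.7%), beside 5.85%, 11.1% and 8.46% of gene peaks. In BT-474 they were in 3 on vehicle (4.11%), 5 on EGF (8.47%) and 3 on HRG (3.75%), beside 5.44%, 6.06% and 7.1%. In pSKBr3 they were in 3 (4.11%), beside 4.7%, and in LRSKBr3 in 5 (4.1%), beside 5.0%. Windows of the same width 2 kb to either side held AP-1 letters in 4 of 140, 6 of 172 and 9 of 244 cases in the SKBr3 lists and in 4 of 146, 1 of 118 and 2 of 160 in the BT-474 lists. Counts this small carry wide counting error. Over all sites, where the window of any list could hold the letters, the ERRE share was 8.92%, with a 95% Wilson interval of 5.78 to 13.5%. That interval treats sites as independent, although many share a gene, and it does not apply to the shares of single lists. No share over all gene sites is given.

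The shorter letters AAGGTCA occurred in 23.7% to 38.4% of receptor peaks per list, beside 19.3% to 25.8% of gene peaks. On BT-474 EGF the receptor share was not the higher, at 23.7% beside 23.9%.

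The genes of the pathway around the receptors were counted the same way. Of 61 ligand genes, 30 were bound on SKBr3 vehicle (49.2%, beside 54.1% of all genes), 34 on EGF (55.7%, beside 56.3%) and 37 on HRG (60.7%, beside 66.4%). In BT-474 33 (54.1%, beside 53.0%), 28 (45.9%, beside 42.3%) and 30 (49.2%, beside 55.3%) were. In pSKBr3 32 (52.5%, beside 57.1%) and in LRSKBr3 40 (65.6%, beside 69.9%) were bound, so the ligand share lay under the genome-wide share in 6 of 8 lists. With only the 5′ end counted it was above on SKBr3 EGF (49.2%, beside 46.8%). It was also above in the 3 BT-474 lists (45.9%, 39.3% and 47.5%, beside 43.9%, 32.9% and 45.6%), and under in the remaining lists. In the 3 SKBr3 lists and no BT-474 list 7 of the 61 (11.5%) were bound, beside 6.57% of all genes, and in the 3 BT-474 lists and no SKBr3 list 4 (6.56%), beside 3.08%. CSF1, a ligand of CSF1R, and MST1, the ligand of MST1R, were bound in the 5 SKBr3-derived lists and in no BT-474 list. IL34, the other ligand of CSF1R, was bound in both lines, on SKBr3 EGF and HRG, on BT-474 vehicle and HRG, and in LRSKBr3. HGF, the ligand of MET, was bound in 4 lists of both lines, which is not the MET pattern. ANGPT1 and ANGPT2, ligands of TEK, were bound in the 3 BT-474 lists only, where TEK and TIE1 had no peak. Of the GDNF-family ligands of RET, ARTN had no peak on SKBr3 vehicle, 3 on EGF and 4 on HRG, and GDNF had 1 on vehicle and none on EGF or HRG. NRTN and PSPN were bound on SKBr3 HRG and neither on vehicle nor on EGF.

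Of 29 adaptor and signalling genes, 20 were bound on SKBr3 vehicle (69.0%, beside 54.1%), 23 on EGF (79.3%, beside 56.3%) and 25 on HRG (86.2%, beside 66.4%). In BT-474 23 (79.3%, beside 53.0%), 19 (65.5%, beside 42.3%) and 23 (79.3%, beside 55.3%) were. In pSKBr3 18 (62.1%, beside 57.1%) and in LRSKBr3 25 (86.2%, beside 69.9%) were bound. No adaptor was bound in the 3 SKBr3 lists without BT-474, beside 6.57% of all genes, or the reverse, beside 3.08%, and with 29 genes these counts lie near the background. CBL, CBLB, GAB1, GAB2, GRB14, PLCG1 and SH2B2 were bound in LRSKBr3 and not in pSKBr3 (24.1% of the 29, beside 14.7% of all genes), and no adaptor showed the reverse. The LRSKBr3 list is the longer, and adaptors were not counted in lists of equal size. Of the ligands 9 (14.8%) were bound in LRSKBr3 and not in pSKBr3, beside the same 14.7%. GAB1, a docking protein downstream of MET and other receptors, had 4 peaks in LRSKBr3, none in pSKBr3 and 3 on SKBr3 vehicle.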

How the data were processed

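The 8 deposited ERRα ChIP-seq peak lists were analysed. The authors aligned reads to hg19 (GRCh37) with BWA 0.5.9 and SAMtools 0.1.18 and called peaks with MACS 1.4.1 (mfold 10 to 30, bandwidth 300, P value cutoff 1e-05). The deposited score of a peak, which MACS defines as a multiple of the negative log10 of its P value, depends on depth and was ranked only within its own list. Comment lines in the 3 SKBr3 lists name another peak caller, FindPeaks.

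Gene starts were all transcript starts of protein-coding genes in GENCODE 44 lifted to GRCh37, and no peak ran past a GRCh37 chromosome end. A receptor, ligand or adaptor gene was bound where a peak centre lay within 20 kb of a start. Peaks overlapping by at least 1 bp were merged into sites. Letters were sought on both strands within 100 bp of peak centres in the GRCh37 sequence. Percentages of all protein-coding genes give the background. No test was possible with 1 list per condition, so no P values are given.

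The 49 members and the ligand and adaptor lists were chosen with earlier results of these data known. Named genes are all members, described fully where bound in all or no lists, gained or lost on growth factors, particular to a line or to 1 of the resistance pair, bound at the promoter, or with an ERRE or AP-1 word, at most 12 a set by score percentile. Other genes were named for some of the peaks that lay nearer to their starts. Ligands and adaptors were named after their values were seen. The assignment of peaks to genes was tested on simulated data. Tables were handled with pandas 2.3.3 and numpy 2.4.6 under Python 3.11.15, sequences with samtools 1.23.1 and pysam 0.24.0, intervals with scipy 1.17.1 and figures with matplotlib 3.10.9.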

Additional observations from a re-analysis of the deposited data

Results flagged for a closer look

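FGFR2 was the only receptor gene whose number of peaks moved in opposite directions in the lines on both growth factors. In SKBr3 it had 9 peaks on vehicle and fewer on each growth factor, 6 on EGF and 7 on HRG. In BT-474 it had 1 peak on vehicle and 2 on each growth factor. The difference between the lines was not tested, since each count comes from 1 list. In BT-474 all of these peaks lie in the same site, chr10:123336160-123341598, which the vehicle list called as 1 peak and each growth factor list as 2, so no site was gained there. Its highest percentile was 58.9 on vehicle, 40.1 on EGF and 57.2 on HRG.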

How the results depend on the processing

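Each condition has 1 deposited list, and the ChIP libraries of SKBr3, pSKBr3 and LRSKBr3 are pooled within it, and leaving out a replicate was not an option. No paired analysis was possible because the replicate numbers of the labels belong to libraries that the lists pool. Over 104 repeats of the counts under other settings, 74 stayed within 1.5 times the value reported and 30 did not; the cause of these moves was not tested.

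With P of at most 1e-10, receptor genes bound on a BT-474 growth factor but not vehicle fell from 8 to 2 (4.08%, beside 6.39% of all genes), those of the 3 BT-474 lists without SKBr3 rose from 2 to 4 (8.16%, beside 2.99%), unbound genes from 5 to 8 (16.3%, beside 25.5%), pSKBr3-only genes from 0 to 1 (2.04%, beside 1.35%) and pSKBr3-only sites from 3 of 213 to 6 of 142. On SKBr3 the vehicle-only count went from 1 to 0 (beside 2.36%), and on BT-474 from 0 to 1 (2.04%, beside 4.96%). In lists of equal size BT-474 HRG bound 21 in place of 32 (42.9%, beside 39.5%), the BT-474 growth factor set held 2 (4.08%, beside 6.75%), the BT-474 vehicle-only set 2 (4.08%, beside 5.07%) and the pSKBr3-only set 4 (8.16%, beside 6.82%).

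Within 10 kb BT-474 EGF bound 17 (34.7%, beside 31.7%), BT-474 HRG 21 (42.9%, beside 43.2%) and pSKBr3 19 (38.8%, beside 47.9%). The vehicle-only set of BT-474 was then 3 (6.12%, beside 4.95%), the SKBr3-without-BT-474 set 7 (14.3%, beside 6.31%), the reverse set 1 (2.04%, beside 2.69%), genes bound in all 8 lists 7 (14.3%, beside 18.7% of all genes) and in none 10 (20.4%, beside 23.8%). Counting only 5′ ends gave the same 17, 21 and 19 in those lists (beside 32.9%, 45.6% and 49.7%), 2 (4.08%, beside 2.31%) and 3 (6.12%, beside 5.38%) genes in the SKBr3 and BT-474 vehicle-only sets, 9 genes in all lists (18.4%, beside 19.2%) and 11 in none (22.4%, beside 20.3%). The receptor share in all 8 lists thus lay under the genome-wide share in both settings, and over it within 20 kb of any start. Sites in pSKBr3 without LRSKBr3 became 8 of 235 with 50% reciprocal overlap and 9 of 247 with centres within 500 bp, and shares over all gene sites were not computed under these settings or the stricter P. The letters AAGGTCA were at 35.7% of sites, and AP-1 letters anywhere in the peak at 32.9%, against 12.2% within 100 bp of centres.

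Peaks whose nearest start was the receptor's own, a setting chosen after seeing the data, left all 18 counts of genes within 1.5 times. EPHA6 and MERTK then left the set bound in all 8 lists. The receptor share exceeded that of all genes in 8 of 8 lists with stricter P or equal list sizes, in 4 within 10 kb and in 2 with 5′ ends only.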
